A study of Mus musculus with 12 samples.

Results

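The methionine cycle enzymes were described in the liver of mice with and without dextran sulfate sodium (DSS) colitis, using the deposited gene count table. The members were the 5 genes Mat1a, Mat2a, Mat2b, Ahcy and Ahcyl1, taken by symbol from the GENCODE vM1 names of the table's Ensembl identifiers. They were 5 of the 51609 rows of the table and 5 of the 17652 genes that passed the filter on low counts, so no member was lost to that filter. Liver RNA came from 12 mice of the C57BL/6 background, 5 to 7 weeks old, in 4 groups of 3: wild-type untreated, wild-type given 2% DSS for 6 days, untreated mice labelled RelaΔhepStat3Δhep, and mice of that label given the same DSS. Cre under the albumin promoter removes Rela and Stat3 from hepatocytes in the RelaΔhepStat3Δhep model, so that the other cells of the liver keep both genes. Per the study's methods, the mice called wild-type were littermates without Cre that carry floxed alleles. Where nothing says that libraries came from separate experiments, p-values measure the spread between these 12 libraries.

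The methionine cycle turns methionine into S-adenosylmethionine, the methyl donor of the cell. Methyltransferases use the donor and leave S-adenosylhomocysteine, which is split into adenosine and homocysteine, and homocysteine is then methylated back to methionine or passed on towards cysteine. The adult liver carries most of the body's methionine turnover, and hepatocytes are known for a methionine adenosyltransferase of their own. Mat1a encodes the catalytic subunit of that hepatocyte enzyme. Mat2a encodes the catalytic subunit used by most other tissues and by dividing cells, and Mat2b the subunit that regulates it. Ahcy encodes S-adenosylhomocysteine hydrolase. Ahcyl1, also called IRBIT, is a paralogue of Ahcy that binds the inositol trisphosphate receptor and other partners and is not known as a hydrolase.

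In the NCBIM37 assembly (mm9), Mat1a (ENSMUSG00000037798) lies on the plus strand at chr14:41918670-41937701. Mat2a (ENSMUSG00000053907) lies on the minus strand at chr6:72382793-72389552, and Mat2b (ENSMUSG00000042032) on the minus strand at chr11:40492816-40508705. Ahcy (ENSMUSG00000027597) was at chr2:154885046-154900233 and Ahcyl1 (ENSMUSG00000027893) at chr3:107466036-107499478, both on the minus strand. Each is annotated as protein-coding, and the counts of a row cover the whole gene. The coding sequences show which of the members could exchange reads. Over 1188 aligned bases, Mat1a and Mat2a shared 867, an identity of 72.98%, and their longest run of equal bases was 15. Ahcy and Ahcyl1 had 61.04% identity over 1291 aligned bases, with a longest equal run of 12. The 90-base windows below are those where Mat1a and Mat2a were most alike, bases 332 to 421 of the Mat1a coding sequence and 329 to 418 of that of Mat2a, with the 13 differing bases in capitals.
Mat1a: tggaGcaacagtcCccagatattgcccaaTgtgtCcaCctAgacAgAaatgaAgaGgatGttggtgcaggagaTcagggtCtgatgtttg
Mat2a: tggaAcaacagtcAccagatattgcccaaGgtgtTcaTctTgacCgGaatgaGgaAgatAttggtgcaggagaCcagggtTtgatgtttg

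Ahcy was the exception, because the mouse genome holds near-identical copies of its transcript outside the gene. A search with the longest Ahcy transcript found 4 other loci that matched at least 50% of it. Gm4737 on chromosome 16, at chr16:46153110-46155190 on the minus strand, matched 81.9% of the transcript with 99.71% identity. The pseudogene Gm9826 on chromosome 1 matched with 98.66%, and 2 loci on the X chromosome with 91.13% and 88.33%. Mat2a had 1 such locus, on chromosome 5, with 94.74% identity and no row in the table used here, and none was found for Mat1a, Mat2b or Ahcyl1. The coding sequences of Ahcy and Gm4737 were equal at 1295 of 1299 bases, with an unbroken equal run of 575 bases. Counted from the A of the start codon and with the Ahcy base written first, the differences were C459T, G474A, C1050T and C1068T. The window of bases 385 to 474, which holds 2 of these in capitals, shows how few bases could assign a read to either gene.
Ahcy: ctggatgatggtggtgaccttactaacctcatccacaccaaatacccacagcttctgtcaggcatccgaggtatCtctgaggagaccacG
Gm4737: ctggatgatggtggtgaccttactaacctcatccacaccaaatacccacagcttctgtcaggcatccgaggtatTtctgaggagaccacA

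Upstream of the start sites the sequences were unlike, and they are shown because Rela and Stat3 act through promoter motifs. RefSeq's promoter table (build GRCm38.p6, whose coordinates are not those of NCBIM37) had an entry for Mat2a, Mat2b, Ahcy and Ahcyl1. The 250 bases before each start were searched on both strands for the STAT motif TTCNNNGAA, the kB consensus motif, the E-box CACGTG and the TATA box TATAAA, none of which can contain another. None of the promoters of these 4 members held the STAT motif, the kB motif or the E-box, which 7.02%, 7.25% and 6.02% of 32851 promoters of that length held. This says only that these letters were not in the windows. TATAAA was present in 12.37% of all promoters and in that of Mat2a, where it began 32 bases before the start. It also occurred 192 bases upstream of Gm4737 and 241 bases upstream of 1 of the Ahcyl1 starts. CpG dinucleotides numbered 29 in the Mat2a window, 25, 42 and 16 in the windows of 3 Ahcyl1 starts, 13 in that of Mat2b, 9 in that of Ahcy and 0 in that of Gm4737, against a median of 6 (quartiles 2 and 16). The windows of Mat2a (chr6:72439557-72439806, minus strand), Ahcy (chr2:155074498-155074747, minus strand) and Gm4737 (chr16:46155078-46155327, minus strand) follow, with the TATA box in capitals.
Mat2a: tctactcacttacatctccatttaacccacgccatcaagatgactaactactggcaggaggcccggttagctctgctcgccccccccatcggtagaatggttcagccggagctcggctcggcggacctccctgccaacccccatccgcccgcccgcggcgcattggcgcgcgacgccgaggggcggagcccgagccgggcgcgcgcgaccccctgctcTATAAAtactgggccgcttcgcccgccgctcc
Ahcy: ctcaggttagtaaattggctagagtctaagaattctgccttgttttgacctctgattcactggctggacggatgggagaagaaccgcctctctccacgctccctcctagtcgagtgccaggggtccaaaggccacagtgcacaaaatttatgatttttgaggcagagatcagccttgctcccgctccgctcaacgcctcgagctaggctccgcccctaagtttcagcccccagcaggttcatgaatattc
Gm4737: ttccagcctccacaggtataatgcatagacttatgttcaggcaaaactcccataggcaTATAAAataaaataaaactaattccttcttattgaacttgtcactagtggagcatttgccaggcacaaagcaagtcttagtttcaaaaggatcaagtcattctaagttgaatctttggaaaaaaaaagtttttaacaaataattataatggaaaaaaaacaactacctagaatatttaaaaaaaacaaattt

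Total estimated counts ran from 65879529 to 82850098 per library, and TMM factors from 0.758 in wild-type DSS library 2 to 1.13. CPM, the usual per-library unit of expression, were taken over the TMM-scaled library size. Xist was at 1143 CPM in wild-type untreated library 3 and at 903 to 1283 CPM in the DSS libraries labelled RelaΔhepStat3Δhep, and at 29.0 CPM or less in the other 8 libraries. Y-linked transcripts summed to 0.0424 to 0.120 CPM in those DSS libraries, to 30.1 CPM in wild-type untreated library 3 and to at least 175 CPM elsewhere. Sex-linked transcripts and the DSS treatment of the labelled knockouts therefore cannot be told apart. The same holds for sex-linked transcripts and the genotype label among DSS-treated mice. Of the targeted genes, Rela averaged 47.1 ± 6.79 CPM (SD, n = 3) in untreated wild-type and 46.0 ± 4.69 CPM (SD, n = 3) in untreated mice labelled RelaΔhepStat3Δhep, and Stat3 90.3 ± 46.0 and 47.4 ± 1.98 CPM (SD, n = 3 each). After DSS, Rela was at 45.5 ± 8.71 CPM in wild-type mice and 49.4 ± 11.7 CPM in labelled knockouts, and Stat3 at 233 ± 148 and 58.6 ± 15.9 CPM (SD, n = 3 each). The Stat3 difference after DSS, a log2 fold change of -1.99, did not pass the test (edgeR adjusted p = 0.175), and the groups overlapped through wild-type DSS library 1 (63.2 CPM). Counts over a whole gene do not show whether floxed exons were lost. The 6 hepatocyte markers had a row each and summed to 80366 and 81560 CPM in 2 of the wild-type DSS libraries and to 111455 to 166625 CPM in the other 10 libraries. Most of this sum was Alb, at 65408 and 62894 CPM in wild-type DSS libraries 2 and 3. By group mean, Apoa1 was higher with DSS in wild-type mice (7066 against 4749 CPM), Hnf4a was at 847 against 890 CPM, and Alb, Ttr, Cps1 and Tat were also lower. Markers of Kupffer cells and macrophages, 6 of 8 with a row and none at 0, summed to 259 to 283 CPM in untreated and 528 to 854 CPM in DSS-treated labelled knockouts, and to 218 to 454 and 356 to 786 CPM in the respective wild-type groups. In bulk liver, fewer cells of a type and less RNA per cell cannot be told apart.

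Mat1a was the most abundant of the members at the RNA level and Mat2b the least. Per kilobase (kb) of annotated exon, Mat1a averaged 1236 CPM over the 12 libraries, with a range of 960 to 1745 CPM. Ahcy followed at 559 CPM per kb, with a range of 366 to 977 CPM per kb. Mat2a was at 23.5 CPM per kb (19.8 to 30.9), Ahcyl1 at 19.5 CPM per kb (17.9 to 22.7) and Mat2b at 6.88 CPM per kb (5.41 to 8.64). Each member was above the next in all 12 libraries. The ranges of Mat1a and Ahcy met at their ends, and those of Mat2a and Ahcyl1 overlapped widely. With the length of the longest transcript in place of all annotated exons, Ahcyl1 (32.9 CPM per kb in untreated wild-type) stood above Mat2a (21.4 CPM per kb), so the order of these neighbours was not settled. By mean CPM, Mat1a ranked 28 and Ahcy 62 among all genes, while Ahcyl1, Mat2a and Mat2b ranked 948, 1669 and 3573.

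**Figure D1:**
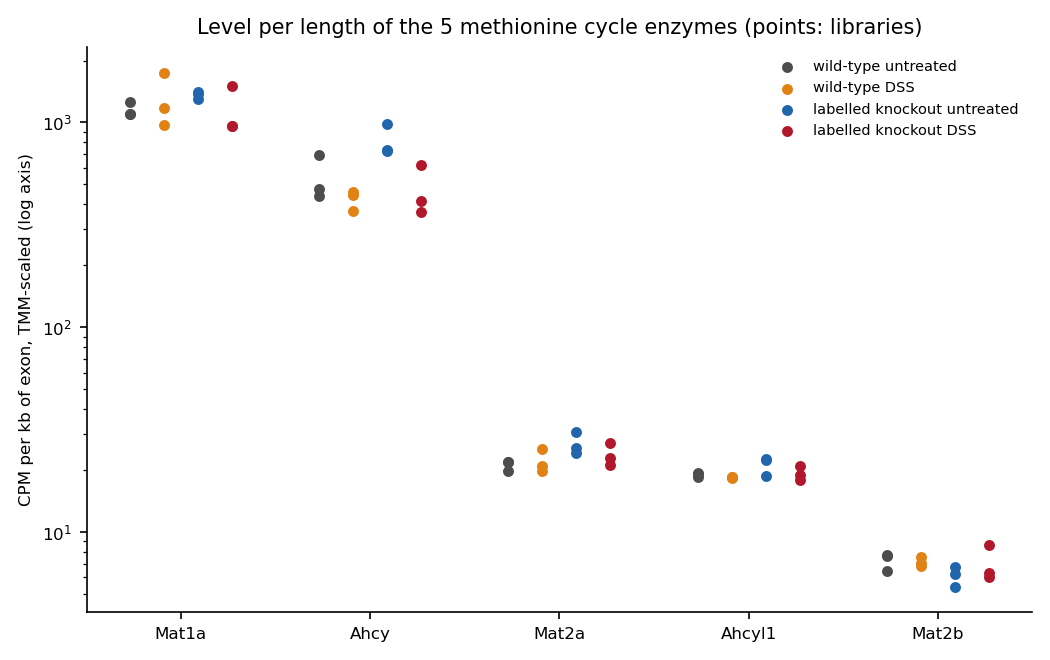
Each point is a library and gives the TMM-scaled CPM per kb of exon on a log axis, for the 5 members ordered by their mean and coloured by group. Mat1a and Ahcy lie between 366 and 1745 CPM per kb, and the other 3 members between 5.41 and 30.9 CPM per kb.

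For the enzymes that make S-adenosylmethionine, Mat1a levels with and without DSS overlapped in both genotypes, with a single high library in each DSS group. Mat1a stood at 4021, 3523 and 3508 CPM in untreated wild-type libraries 1 to 3. In DSS-treated wild-type mice it was at 3114, 5599.6 and 3750.1 CPM. Untreated mice labelled RelaΔhepStat3Δhep had 4156, 4408 and 4522 CPM, and the DSS-treated mice of that label 3078, 3079 and 4839 CPM. The untreated groups did not overlap, with the labelled knockouts higher, but over plain library totals they did (wild-type library 1 at 4101 CPM, labelled-knockout library 1 at 4086 CPM). The high wild-type DSS library had the lowest TMM factor, and over its plain library total Mat1a was at 4245 CPM. Relative to untreated mice, DSS came with a log2 fold change of 0.17 (SE 0.25, edgeR adjusted p = 0.813) in wild-type mice and -0.25 (SE 0.25, edgeR adjusted p = 0.590) in labelled knockouts. Without wild-type DSS library 2 the wild-type value was -0.11, of the opposite sign, and without DSS library 3 of the labelled knockouts the value of that label was -0.50.

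Mat2a, whose product is the catalytic subunit used by most other tissues and by dividing cells, was higher in the untreated labelled knockouts than in untreated wild-type mice in each library. Which liver cells its counts came from was not tested. It stood at 74.2, 67.2 and 74.2 CPM in untreated wild-type mice and at 104.8, 87.1 and 82.8 CPM in untreated labelled knockouts. The log2 fold change between these groups was 0.35 (SE 0.14, 95% interval 0.04 to 0.66), and it did not pass the test over all genes (edgeR adjusted p = 0.372). After DSS, Mat2a was at 86.0, 67.0 and 70.8 CPM in wild-type mice and at 71.7, 92.3 and 78.2 CPM in labelled knockouts, and these groups overlapped each other and their untreated counterparts. Without wild-type untreated library 3, which had high Xist, the log2 fold change of the untreated genotypes was 0.37.

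Mat2b, which encodes the regulatory partner of MAT2A, overlapped between the groups in each of the 4 group comparisons on TMM-scaled CPM. Its levels were 38.4, 32.4 and 38.2 CPM in untreated and 35.3, 37.7 and 34.2 CPM in DSS-treated wild-type mice. Labelled knockouts had 33.7, 31.1 and 27.0 CPM without treatment and 43.2, 30.1 and 31.4 CPM after DSS, where library 1 was the highest of all 12. The log2 fold changes lay between -0.25 (labelled knockouts against wild-type, untreated) and 0.19 (DSS against untreated in labelled knockouts).

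Ahcy, the hydrolase that removes S-adenosylhomocysteine, showed the widest differences between groups of the members. Untreated wild-type mice had 1945, 1229 and 1328 CPM, with library 1 well above the others. DSS-treated wild-type mice had 1241, 1287 and 1039 CPM. Ahcy stood at 2039.6, 2741 and 2049.7 CPM in untreated labelled knockouts, above every library of the other 3 groups. After DSS the labelled knockouts had 1159.7, 1026 and 1732 CPM, which overlapped both wild-type groups. In labelled knockouts, DSS-treated mice had 0.574 times the untreated level of Ahcy (95% interval 0.395 to 0.833), a log2 fold change of -0.80 (SE 0.25). The 2 groups did not overlap, and the difference missed the threshold of 0.05 over all genes (edgeR adjusted p = 0.0696). It passed with the DESeq2 Wald test (log2 fold change -0.82, adjusted p = 0.0058). It also passed in edgeR without labelled-knockout DSS library 3 (-1.06, adjusted p = 0.0375) and without wild-type DSS library 2 (-0.82, adjusted p = 0.0487). These were the only 3 passes among 22 alternatives, and the replicate block was among those that did not pass. With an indicator of Xist over 100 CPM in the model the value was -0.54 (SE 0.46, adjusted p = 0.705). That indicator rests on wild-type untreated library 3 alone outside the DSS-treated labelled knockouts.

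In untreated mice, labelled knockouts had 1.52 times the wild-type level of Ahcy, a log2 fold change of 0.60 (SE 0.25, edgeR adjusted p = 0.372). In wild-type mice the log2 fold change with DSS was -0.34 (SE 0.25, edgeR adjusted p = 0.580), and -0.11 without wild-type untreated library 1, the highest of its group. The DSS responses of the genotypes differed by -0.47 (SE 0.35, adjusted p = 0.528 for the interaction in edgeR), a difference that the replicate spread could not separate from 0 (95% interval -1.22 to 0.29). Because reads can be shared with the copies described above, the row of Gm4737 was followed beside that of Ahcy. Gm4737 was at 407 to 644 CPM in untreated wild-type mice, 332 to 417 CPM after DSS, 682 to 902 CPM in untreated labelled knockouts and 352 to 602 CPM after DSS. The ratio of Ahcy to Gm4737 counts kept between 2.88 and 3.15 in all 12 libraries. How many of the counts in either row came from the other gene's transcripts was not tested. With the counts of Ahcy, Gm4737 and Gm9826 added together, a choice made after seeing the data, the log2 fold change in labelled knockouts was -0.79 (adjusted p = 0.0788) and that of the untreated genotypes 0.60.

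Ahcyl1, the paralogue, stayed within a narrow band. It was at 128.1, 123.8 and 129.7 CPM in untreated and 122.7, 123.7 and 124.3 CPM in DSS-treated wild-type mice. Labelled knockouts had 151.8, 149.6 and 125.1 CPM without treatment and 127.0, 119.8 and 139.9 CPM after DSS. Libraries 1 and 2 of the untreated labelled knockouts were the highest of the 12, and library 3 of that group lay among the wild-type values. Log2 fold changes ran from -0.14 (SE 0.12, DSS against untreated in labelled knockouts, edgeR adjusted p = 0.516) to 0.16 (SE 0.12, labelled knockouts against wild-type, untreated, edgeR adjusted p = 0.652).

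**Figure D2:**
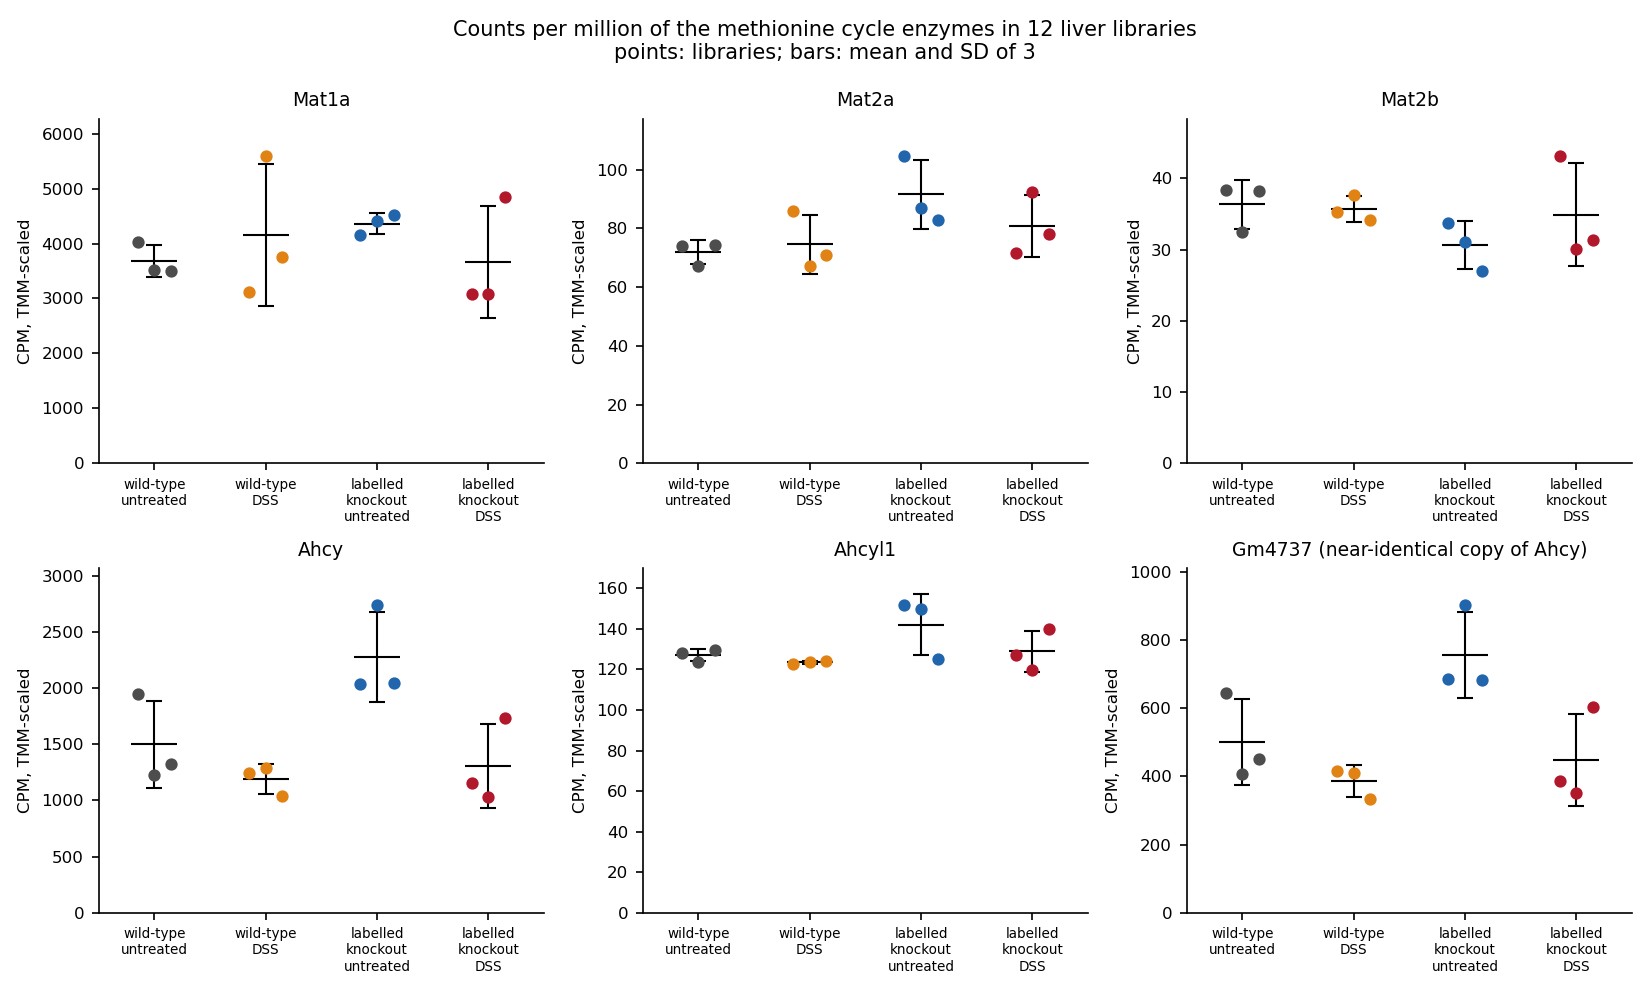
Points are libraries and bars the mean and SD of 3, as TMM-scaled CPM on axes that start at 0, for the 5 members and for Gm4737, the near-identical copy of Ahcy. The untreated labelled knockouts are the highest group for Ahcy (2039.6 to 2741 CPM), and Gm4737 has the same pattern of libraries.

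The comparison of DSS-treated with untreated wild-type mice asks how liver transcripts respond to colitis. None of the 5 members passed an adjusted p of 0.05 in edgeR, where 0.685% of all tested genes did, and none had an unadjusted p under 0.05. DESeq2 and limma-voom called none either. No member's groups were separate, against 18.7% of all genes. The median log2 fold change of the members was -0.03, beside 0.02 over all genes. The 95% intervals bound what these libraries could have missed: the Mat1a level after DSS lay between 0.772 and 1.65 times the untreated level, and that of Ahcyl1 between 0.810 and 1.17 times.

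The same comparison in mice labelled RelaΔhepStat3Δhep gives the response to DSS under that label, and the interaction of genotype and DSS tests whether it differs from that of wild-type mice. Among the members, 0 of 5 passed in edgeR, where 7.02% of all genes were called and 2.46% were called lower. Ahcy alone had an unadjusted p under 0.05 in edgeR, as did 4261 of all 17652 genes. DESeq2 called 1 member, Ahcy, and limma-voom 0. The share of all genes that DESeq2 called is not given here, so its 1 call has no rate beside it. On TMM-scaled CPM, Ahcy was also the only member whose groups were separate, against 31.8% of all genes. Over plain library totals Ahcyl1 was separate too, at 140.7 to 149.2 CPM without and 129.1 to 140.0 CPM with DSS. The members' median log2 fold change was -0.18, beside -0.01 over all genes. Macrophage markers were higher in each of these DSS libraries than in any untreated one, and all 3 had high Xist. The part of either in the Ahcy values was not tested.

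Between untreated mice of the 2 genotype labels, 0 of 5 members were called, where 0.0623% of all genes were called in edgeR. DESeq2 and limma-voom called 0 as well. Ahcy and Mat2a had an unadjusted p under 0.05 in edgeR, as did 2060 of all 17652 genes. Mat1a, Mat2a and Ahcy, 3 of 5 members, were higher in labelled knockouts without any overlap, where 20.2% of all genes had groups that did not overlap in either direction. This separation depends in part on the scaling: over plain library totals Mat2a and Ahcy remained separate, Mat1a overlapped, Ahcyl1 was separate and higher (140.7 to 149.2 CPM against 126.8 to 130.7 CPM), and Mat2b was separate and lower in labelled knockouts (29.6 to 33.15 CPM against 33.22 to 39.2 CPM). The median log2 fold change over the 5 members was 0.24, beside 0.00 over all genes. The clock gene Nr1d1, outside the members, differed strongly between the same groups. It was at 71.5, 108.3 and 97.6 CPM in wild-type mice and at 4.98, 8.61 and 7.45 CPM in labelled knockouts (log2 fold change -3.72, edgeR adjusted p = 0.00036). The part of this difference in the members' values was not tested.

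After DSS, no member differed between the genotype labels by the edgeR test, which called 0.334% of all genes, and none had an unadjusted p under 0.05. DESeq2 and limma-voom called none. No member had separate groups, against 16.8% of all genes. The members' largest log2 fold changes were -0.18 for Mat1a (SE 0.25) and 0.14 for Ahcy (SE 0.25), both smaller than their standard errors. Y-linked transcripts summed to 205 to 228 CPM in the wild-type DSS libraries and to 0.120 CPM or less in those of labelled knockouts. Genotype label and sex-linked transcripts thus cannot be told apart after DSS, which also limits the interaction. Nr1d1 was again lower in labelled knockouts (log2 fold change -4.08, edgeR adjusted p = 0.00016), and its part was not tested. For the interaction of genotype and DSS, 0 of 5 members were called in edgeR, DESeq2 or limma-voom, where edgeR called 0.408% of all genes, and none had an unadjusted p under 0.05. The interaction values were -0.42 for Mat1a, -0.24 for Mat2a, 0.22 for Mat2b, -0.47 for Ahcy and -0.10 for Ahcyl1 on the log2 scale. Over the alternatives they ran from -0.67 to -0.16 for Mat1a, -0.34 to -0.11 for Mat2a, 0.03 to 0.36 for Mat2b, -0.72 to -0.13 for Ahcy and -0.18 to 0.04 for Ahcyl1, so their sizes were not settled by these libraries.

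**Figure D3:**
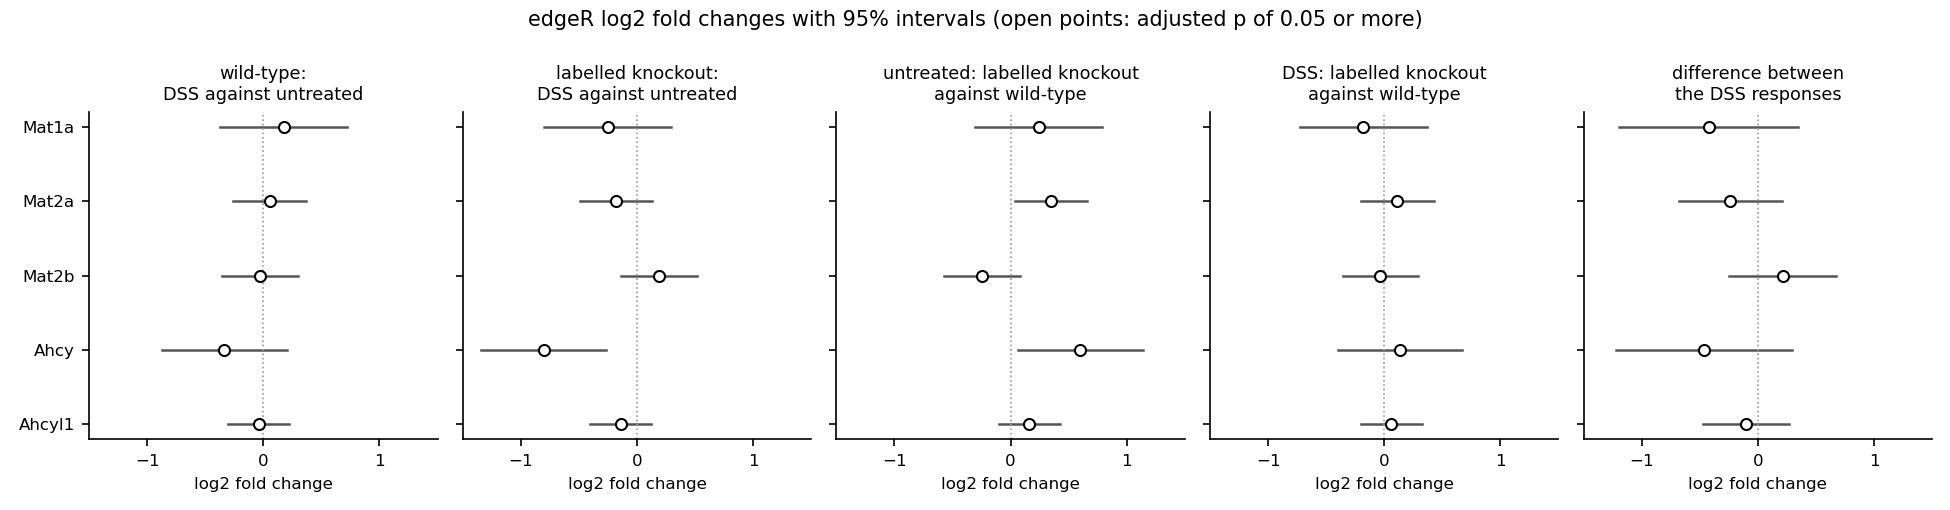
Log2 fold changes from edgeR (points) with 95% intervals (lines) for the 5 members in the 5 comparisons, on 1 shared scale. All points are open because none passed an adjusted p of 0.05. The interval of Ahcy lies below 0 for DSS in labelled knockouts (-1.34 to -0.26) and above 0 for labelled knockouts against wild-type without treatment (0.06 to 1.14).

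Ratios of 2 genes within a library do not depend on library scaling. The ratio of Mat1a to Mat2a, often read as the balance of the hepatocyte enzyme and the general enzyme, lay between 35.2 and 88.2 per kb over the 12 libraries. Its log2 mean was 5.76 ± 0.10 in untreated wild-type mice and 5.84 ± 0.60 after DSS, and 5.66 ± 0.24 and 5.56 ± 0.45 in the respective labelled knockouts (SD, n = 3 each). Exact two-sided permutation tests gave p-values of 0.6 to 0.8 for its 4 comparisons, where 3 libraries against 3 cannot go below 0.1. The ratio of Ahcy to Ahcyl1 was lower after DSS in labelled knockouts, at 4.56 ± 0.28 against 5.25 ± 0.23 on the log2 scale (SD, n = 3 each), a difference of -0.69 without overlap (exact permutation p = 0.1, the smallest possible). Its differences were -0.27 with DSS in wild-type mice (exact p = 0.5), 0.46 between untreated genotypes (exact p = 0.2) and 0.05 between DSS-treated genotypes (exact p = 0.8).

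The ratio of Mat2a to Mat2b was examined after the values had been seen. Per kb it was 2.85, 3.06 and 2.86 in untreated wild-type mice, and 4.59, 4.14 and 4.52 in untreated labelled knockouts. The groups were separate, with a log2 difference of 0.59 (exact permutation p = 0.1, the smallest possible) that stayed between 0.57 and 0.64 when any single library was left out. After DSS, labelled knockouts had 2.45, 4.53 and 3.68 and wild-type mice 3.60, 2.63 and 3.06, which overlapped. The ratio of Ahcy to Gm4737 was the most even of the 4, at 2.13 to 2.33 per kb in all libraries.

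**Figure D4:**
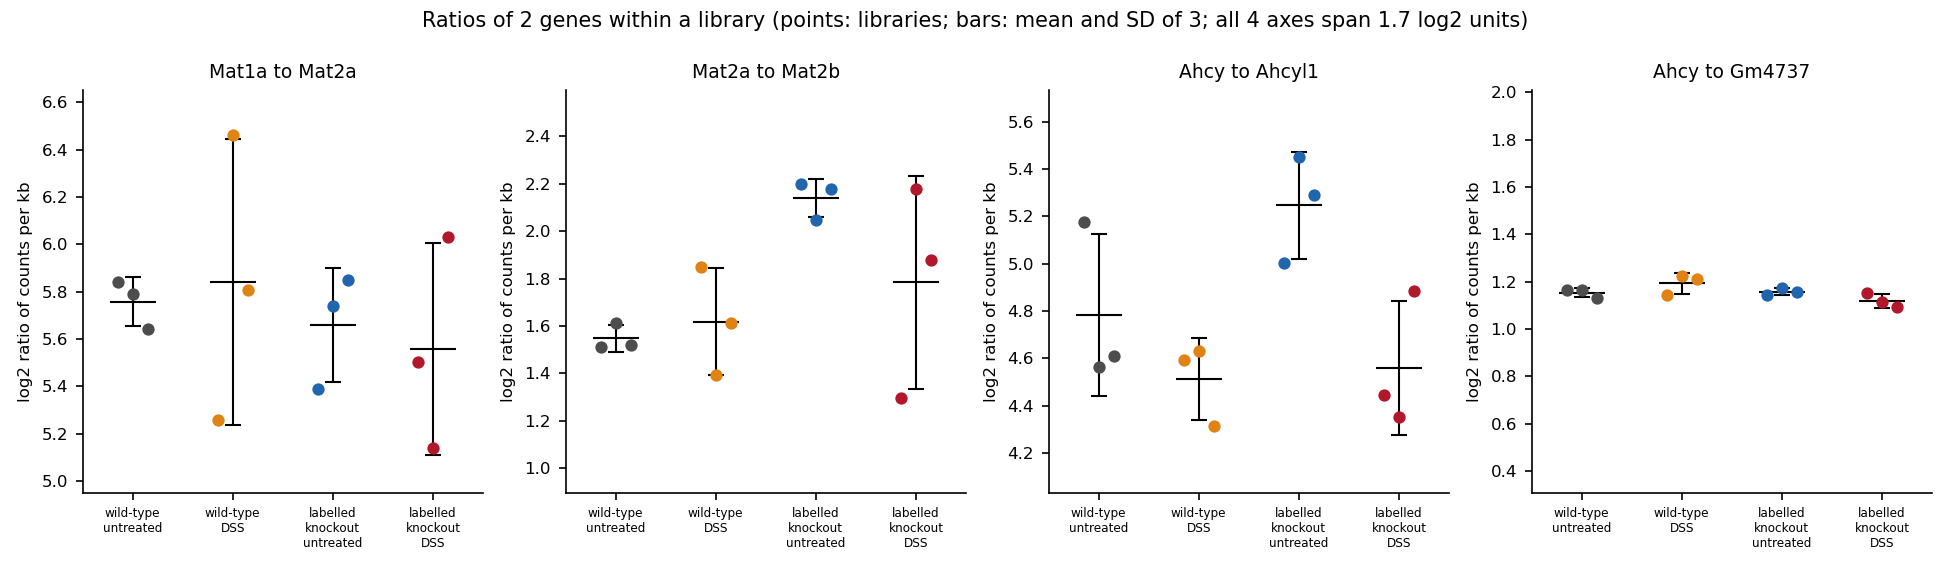
Log2 ratios of counts per kb for 4 pairs of genes, with points for libraries and bars for the mean and SD of 3. All axes span the same number of log2 units, so the near-constant Ahcy to Gm4737 ratio (2.13 to 2.33 per kb) can be set beside the wider Mat1a to Mat2a ratio (35.2 to 88.2 per kb).

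Around these members, a list of 35 genes covered remethylation, transsulfuration, methyltransferases, removal of adenosine, choline oxidation, polyamine synthesis, methionine salvage and control of Mat2a RNA. Of these, 31 had a row and all 31 were tested, and Cth, Mri1, Adi1 and Ythdc1 were not analysed here. In wild-type mice given DSS, 0 of 31 passed in edgeR, where 0.685% of all genes did (3 called by DESeq2 and 1 by limma-voom). In edgeR, 7 of the list had an unadjusted p under 0.05, as did 2567 of all 17652 genes. In labelled knockouts given DSS, 6 of 31 were called lower and none higher. Of all genes, 2.46% were called lower, and 806 of 17652 higher. Of the 31, 11 had positive log2 fold changes. An unadjusted p under 0.05 was reached by 14 of the list and by 4261 of all 17652 genes in edgeR. DESeq2 and limma-voom each called 10 of the list in this comparison, and edgeR called 0 with the Xist indicator in the model and 3 with library totals. The edgeR count of 6 rests on single libraries. It was 0 without untreated labelled-knockout library 2 and 11 without wild-type DSS library 2. It was 2 without library 1 or library 3 of the untreated labelled knockouts, or without DSS library 1 or 3 of that label. The shares of all genes called in these other fits are not given here, so their counts cannot be set against a rate. Groups did not overlap for 13 list genes that were lower and 5 that were higher, beside the 31.8% of all genes in either direction. In wild-type mice given DSS they did not overlap for 8 list genes that were lower and 0 that were higher, beside 18.7% of all genes. In the DSS-treated labelled knockouts the macrophage markers were higher than in the untreated ones, at 528 to 854 CPM against 259 to 283 CPM, and 6 of 7 leukocyte markers with a row summed to 60.3 to 108.3 CPM against 23.7 to 30.7 CPM. The part of either in the list's values was not tested. Between untreated genotypes 0 were called (2 at an unadjusted p under 0.05, 0 by DESeq2 and 0 by limma-voom). After DSS, 0 were called between genotypes (3 at an unadjusted p under 0.05, 1 by DESeq2 and 0 by limma-voom). The interaction also gave 0 (2 at an unadjusted p under 0.05, 1 by DESeq2 and 0 by limma-voom). Of all 17652 genes, 2060, 2516 and 2874 had an unadjusted p under 0.05 in edgeR in these 3 comparisons. The list's median log2 fold changes were -0.16 with DSS in wild-type mice and -0.18 in labelled knockouts.

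Of the methyltransferases, 2 of 9 were called lower with DSS in labelled knockouts, against 2.46% of all genes called lower, and of the other 7 that did not pass, 4 had negative and 3 positive log2 fold changes. These calls and those of the next paragraph were all lost with the Xist indicator in the model and without untreated labelled-knockout library 2. The fold changes of those fits are not given here, so the lost calls do not show that the differences were smaller. Gamt, which makes creatine from guanidinoacetate, went from 144.8, 158.5 and 92.9 CPM to 65.2, 60.8 and 64.2 CPM (log2 fold change -1.06, edgeR adjusted p = 0.0134). Hnmt, which methylates histamine, went from 34.1, 29.5 and 20.5 CPM to 15.4, 7.3 and 8.0 CPM (-1.46, edgeR adjusted p = 0.0157). Gnmt, a glycine methyltransferase that uses up surplus S-adenosylmethionine in hepatocytes, was at 1440.0, 1636 and 1323 CPM and at 848, 949 and 1127 CPM (-0.59, edgeR adjusted p = 0.0728). For these 3 genes the libraries with and without DSS did not overlap in labelled knockouts, where 31.8% of all genes did not. In wild-type mice they did not overlap on TMM-scaled CPM either (18.7% of all genes), with log2 fold changes of -0.34 for Gamt, -0.58 for Hnmt and -0.51 for Gnmt that did not pass the test (edgeR adjusted p = 0.487, 0.395 and 0.223). No difference between the genotypes in these DSS responses passed the interaction test (edgeR adjusted p = 0.262 for Gamt, 0.325 for Hnmt and 0.905 for Gnmt).

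The paralogue Ahcyl2 and 2 of 4 polyamine genes were called lower in the same comparison, against the same 2.46% of all genes. Ahcyl2 was at 39.1, 30.1 and 33.6 CPM in untreated and 19.7, 23.0 and 20.3 CPM in DSS-treated labelled knockouts (-0.70, edgeR adjusted p = 0.0255), while Ahcyl1 gave -0.14. Amd1, whose product decarboxylates S-adenosylmethionine for polyamine synthesis, went from 60.2, 56.9 and 49.5 CPM to 26.5, 46.6 and 30.5 CPM (-0.68, edgeR adjusted p = 0.0404). Srm, the spermidine synthase, went from 17.7, 20.7 and 24.1 CPM to 10.1, 13.9 and 10.9 CPM (-0.84, edgeR adjusted p = 0.0326). The other polyamine genes did not pass, with -0.48 for Odc1 and 0.37 for Sms, the spermine synthase. In wild-type mice given DSS, none of the 4 polyamine genes passed and all 4 had negative log2 fold changes, -0.35 for Amd1, -0.46 for Srm, -0.85 for Odc1 and -0.12 for Sms, and Ahcyl2 was at -0.31. Chdh, which oxidises choline to betaine aldehyde, went from 226.7, 226.9 and 248.9 CPM to 120.7, 159.3 and 164.7 CPM (-0.66, edgeR adjusted p = 0.0286), the lowest 3 values of all 12 libraries.

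Genes that return homocysteine to methionine or divert it did not pass the test in any of the 5 comparisons in edgeR. Bhmt, which uses betaine as methyl donor, was at 1442, 1229.5 and 725 CPM in untreated and 1926, 1573 and 2619.8 CPM in DSS-treated labelled knockouts (log2 fold change 0.85, edgeR adjusted p = 0.244). Untreated wild-type mice had 3559, 1618 and 1464 CPM, above the untreated labelled knockouts without overlap (-0.97 for labelled knockouts against wild-type, edgeR adjusted p = 0.402). Such separation was found for 20.2% of all genes. Wild-type mice had 1837.5, 3911 and 1519 CPM after DSS. Mtr, the methionine synthase that uses folate, lay between 14.4 and 19.3 CPM in all 12 libraries. Cbs, the entry to transsulfuration, was at 350.5, 236 and 416 CPM in untreated and 464, 546 and 632 CPM in DSS-treated labelled knockouts (0.71, edgeR adjusted p = 0.132). It was at 489, 669 and 491 CPM in untreated wild-type mice, also above the untreated labelled knockouts without overlap (-0.72 for labelled knockouts against wild-type, edgeR adjusted p = 0.350). After DSS, wild-type mice had 582, 332 and 675 CPM. Adk, the kinase that clears the adenosine released by AHCY, stood at 497 to 675 CPM after DSS and 588 to 718 CPM before it in labelled knockouts (-0.24, edgeR adjusted p = 0.464).

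**Figure D5:**
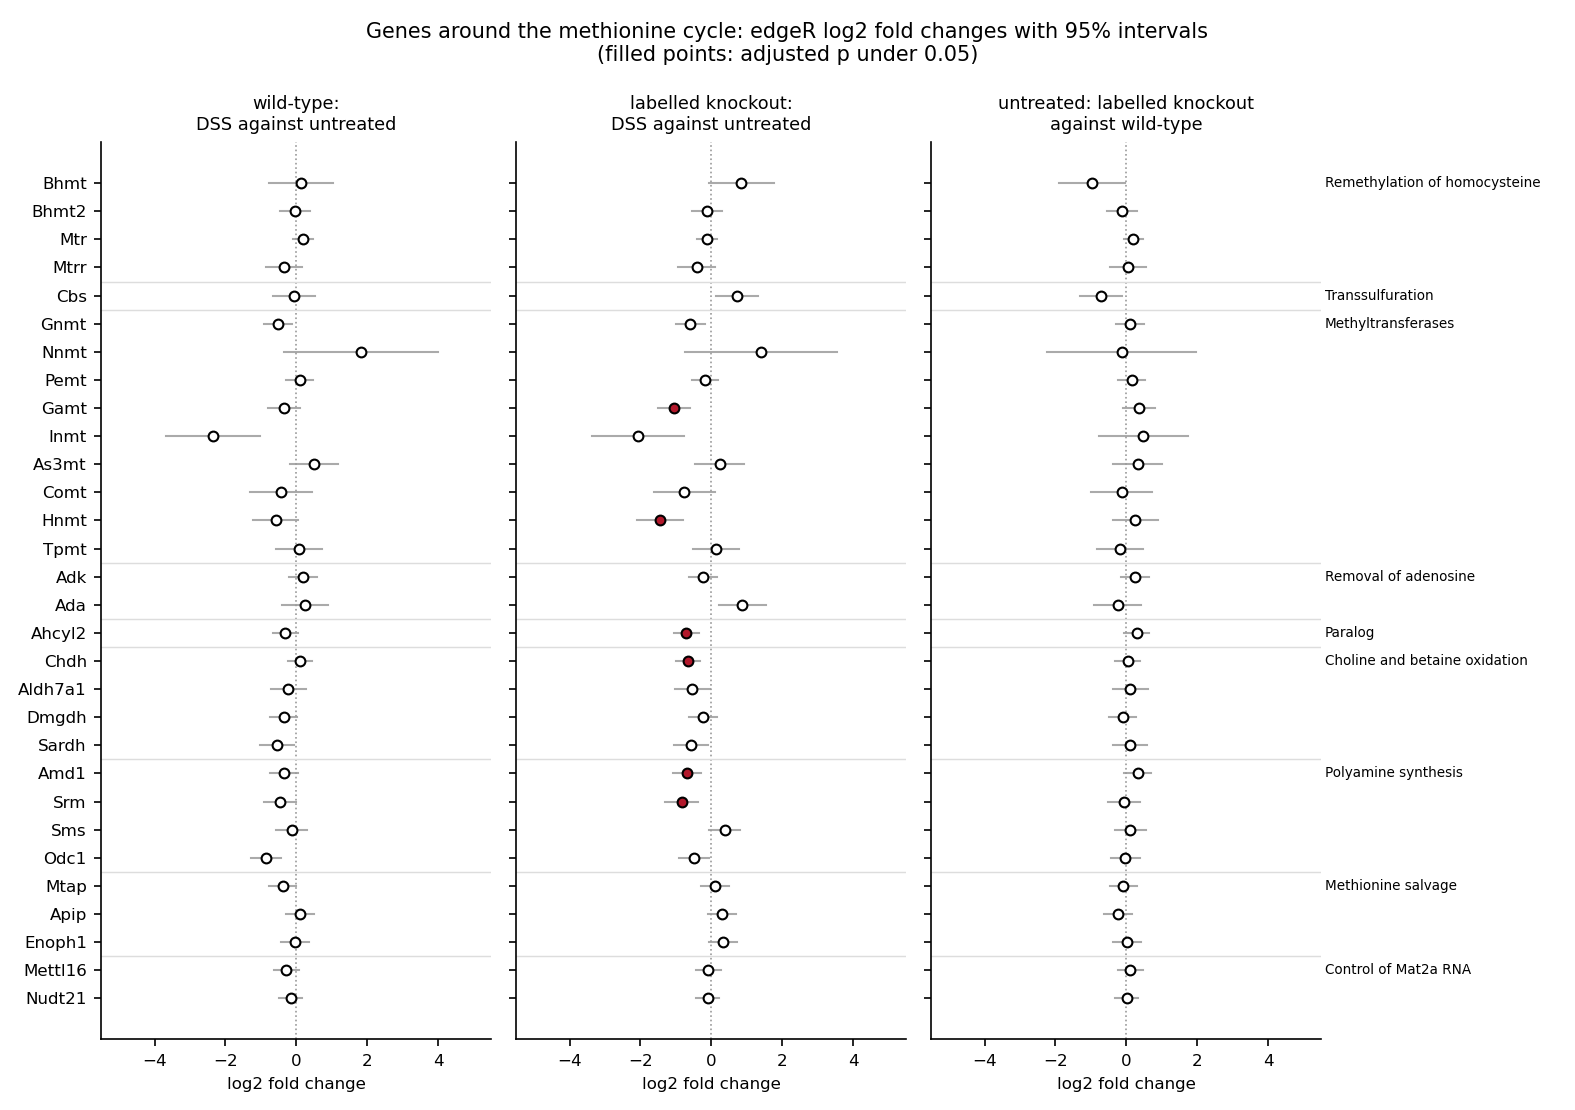
Log2 fold changes from edgeR (points) with 95% intervals (lines) for 30 genes of the pathway list, grouped by role, in 3 comparisons. The 6 filled points, which passed an adjusted p of 0.05, are all lower with DSS in labelled knockouts (-1.46 for Hnmt to -0.66 for Chdh).

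Over the 12 libraries, the highest of the 10 correlations between members was that of Ahcy and Ahcyl1 (Pearson's r = 0.76 on log2 CPM). Mat1a and Ahcy followed at 0.54, Mat2a and Ahcyl1 at 0.52, Mat2a and Ahcy at 0.41 and Mat1a and Ahcyl1 at 0.38. The r of Mat1a and Mat2a was -0.11, and the 4 pairs with Mat2b lay between -0.44 (with Mat2a) and -0.12 (with Ahcyl1). Protein-coding genes most like each member were chosen by this r over the same 12 libraries, which share their groups, depths and sex-linked differences, so the values are a description. For Ahcy they were Gm4737 (0.997), Ctnnbip1 (0.939) and Marveld1 (0.926). For Mat1a they were Tbc1d4 (0.886), Hspb8 (0.882) and Egln1 (0.875). Zfp146 (0.843), Dlg4 (0.837) and Ints6 (0.832) were most like Mat2a, and Znhit3 (0.935), Vps35 (0.933) and Tc2n (0.927) most like Mat2b. Ahcyl1 was followed most closely by Pdk1 (0.881), Ids (0.871) and Slc9a2 (0.866).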

How the data were processed

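Paired-end libraries of liver RNA without rRNA were made from 12 mice. The authors trimmed their reads with fastp, aligned them to mm9 with HISAT2 and deposited whole-number estimated counts per gene from StringTie, not normalized; the annotation used for counting is not given in the sources used here. GENCODE vM1 named 28677 of the 51609 rows. Groups came from the sample labels.

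All 12 libraries were fitted in edgeR 4.0.16 (R 4.3.3) as 4 groups, after filterByExpr and TMM, with robust quasi-likelihood F tests and Benjamini-Hochberg adjustment over 17652 genes. Adjusted p under 0.05 was called. The 95% intervals use the fitted standard errors. The numbered replicates were not treated as pairs. Levels per length use the union of exons in vM1, with the longest transcript as alternative. Ratios were compared by exact two-sided permutation tests of 3 against 3. Copies were searched with minimap2 2.31. The fits were also run on simulated data, whose outcome is not reported here, and no duplicate libraries were found.

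The members and the lists were chosen with earlier results of these data known. Text names the 5 members, list genes called in any comparison (up to 6 each), Bhmt, Gnmt, Cbs, Cth, Mtr, Adk and Ahcyl2, and the 3 protein-coding genes most correlated with each member on log2 CPM (prior count 2). Nr1d1 is named for its difference between the genotype labels. Alternatives were DESeq2 1.42.0, limma-voom (limma 3.58.1) with quality weights, DESeq2 size factors, filters of none or of 10 counts per library, a fit of the compared groups alone, a replicate block, a covariate for Xist over 100 CPM and leaving out each library. Library totals in place of TMM and Ahcy summed with its copies were added after seeing the data. Of the pathway list, 1 gene is counted but not reported here on its own.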

Additional observations from a re-analysis of the deposited data

Results flagged for a closer look

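Chdh, the choline dehydrogenase, was picked out because its libraries lay on opposite sides of the untreated means in the 2 genotypes on TMM-scaled CPM: each DSS-treated mouse labelled RelaΔhepStat3Δhep was below the untreated mean log2 CPM of its label, and each DSS-treated wild-type mouse was above the untreated wild-type mean, library 1 (228.3 CPM) by a small margin. The log2 fold change with DSS in wild-type mice was 0.11 (SE 0.16, edgeR adjusted p = 0.819) with overlapping groups, so no change was shown there. Over plain library totals wild-type DSS library 2 was at 206.3 CPM, below the untreated wild-type libraries (212.0 to 271.1 CPM), so the opposite sides depend on the scaling. The difference of the DSS responses was -0.77 on the log2 scale (SE 0.22). It did not pass the edgeR interaction test over all genes (adjusted p = 0.146). The DSS-treated labelled knockouts also had high Xist, whose part was not tested, and with the Xist indicator in the model edgeR no longer called Chdh with DSS in labelled knockouts.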

How the results depend on the processing

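Of 525 refits of the members' fold changes, 504 kept direction and side of the threshold, 3 passed it (Ahcy with DSS in labelled knockouts, as given above) and 18 changed sign among values that were not called in any fit. The cause of these changes was not tested. Members called with DSS in labelled knockouts numbered 1 with DESeq2 and 0 to 1 when 1 library was left out. The pathway list had 3 calls with DESeq2 and 1 each with limma-voom, no filter and library totals for DSS in wild-type mice, and 0 to 2 without 1 library. In labelled knockouts it had 10 with DESeq2, 10 with limma-voom, 0 with the Xist covariate, 3 with library totals and 0 to 11 without 1 library (11 without wild-type DSS library 2 and 0 without untreated labelled-knockout library 2). DESeq2 called 1 for the DSS-treated genotypes, which gave 0 to 1 without 1 library, and 1 for the interaction. Shares of all genes called are given for the main edgeR fit only, so the counts of the other fits have no rate beside them.

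For wild-type DSS, signs changed for Mat1a (limma-voom -0.011; -0.11 to 0.34 without 1 library), Mat2a (library totals -0.036; -0.061 to 0.12 without 1 library) and Mat2b (Xist covariate 0.011; -0.10 to 0.013 without 1 library). For Mat2b with DSS in labelled knockouts the range without 1 library was -0.0063 to 0.29. Between DSS-treated genotypes, Mat1a was 0.054 with limma-voom, 0.0057 with library totals and -0.43 to 0.095 without 1 library; Mat2b was 0.11 with library totals and -0.21 to 0.066 without 1 library; Ahcy ran from -0.12 to 0.29 without 1 library and was 0.39 with the Xist covariate. The Ahcyl1 interaction was 0.040 with library totals. Without 1 library, the log2 ratio of Mat1a to Mat2a differed by -0.23 to 0.38 (wild-type DSS), -0.34 to 0.11 (labelled-knockout DSS), -0.19 to 0.038 (untreated genotypes) and -0.58 to 0.026 (DSS-treated genotypes), that of Ahcy to Ahcyl1 by -0.12 to 0.15 (DSS-treated genotypes), and that of Mat2a to Mat2b by -0.044 to 0.18 (wild-type DSS) and -0.032 to 0.41 (DSS-treated genotypes).

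The same-numbered libraries of 2 groups correlated between -0.084 and 0.17 in their deviations, so the numbers were not taken as pairs. With a replicate block, 0 members and 6 list genes were called with DSS in labelled knockouts, and Ahcy had an adjusted p of 0.106 (edgeR). Groups of 3 mice limit the precision: the interval of Ahcy with DSS in wild-type mice spans 0.547 to 1.15 times the untreated level.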

Other observations

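Some further genes of the pathway list had wide differences with DSS without passing the test, and are named here after their values were seen. Inmt, a methyltransferase of indole amines, stood at 649.5, 671.1 and 627.5 CPM in untreated wild-type mice and at 168.3, 22.1 and 191.7 CPM after DSS (log2 fold change -2.35, edgeR adjusted p = 0.102). In mice labelled RelaΔhepStat3Δhep it stood at 1036, 933 and 734 CPM without and at 297.0, 160.5 and 187.7 CPM with DSS (-2.07, edgeR adjusted p = 0.0610). Neither pair of groups overlapped, as for 18.7% of all genes in wild-type mice and 31.8% in labelled knockouts, and wild-type DSS library 2 was the lowest of the 12. Odc1, the ornithine decarboxylase of polyamine synthesis, was at 67.7, 84.3 and 54.5 CPM in untreated and 32.6, 47.4 and 34.9 CPM in DSS-treated wild-type mice (-0.85, edgeR adjusted p = 0.0675). Nnmt, which methylates nicotinamide with S-adenosylmethionine, reached 233.4 CPM in wild-type DSS library 2, against 10.9 to 97.8 CPM in the other 11 libraries.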
